A study of Mus musculus with 11 samples.

Results

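Fragments of 8 genes whose products silence messenger RNAs were followed across brain regions: the Argonaute genes Ago1 and Ago2, the TNRC6 genes Tnrc6a, Tnrc6b and Tnrc6c, the small RNA processing gene Dicer1, the deadenylase scaffold gene Cnot1 and the Pumilio gene Pum2. They were taken by symbol from a table of 30986 rows, and all 8 have a row. The table counts RNA fragments that came down with FMRP, the RNA-binding protein lost in Fragile X syndrome, after ultraviolet crosslinking of ground brain tissue. The mice were at postnatal day 13, and the labels name no strain, genotype or sex. Of 11 libraries, 2 are labelled cerebellum, 3 cortex and 5 hippocampus, with no treatment beyond the crosslinking and no library without FMRP or of input RNA analysed here. The remaining library names cortex in its title and hippocampus in its tissue label, and was kept out of the comparisons.

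MicroRNAs are cut from their precursors by Dicer1 and loaded into Argonaute proteins, which they guide to complementary sites in messenger RNAs. A TNRC6 protein binds Argonaute and recruits the CCR4-NOT complex, built on the scaffold Cnot1, which shortens the poly(A) tail and represses translation. Pumilio proteins bind their own sequence element in messenger RNAs and recruit the same complex without a microRNA. FMRP is known as a translational repressor of neuronal messenger RNAs and has been linked to the microRNA machinery at the protein level. The values below concern the messenger RNAs of these genes, not their proteins.

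Total counts per sample ran from 11898 to 197382, and CPM below are counts per 1000000 counts of the sample. The libraries hippocampus 1 and 2 could not be told apart by their counts (chi-square of 1.03 per degree, p = 0.191, against 1.51 to 22.1 in the other 13 pairs of a region). Their difference was within the sampling noise, and their summed counts entered as 1 sample, hippocampus 1+2, which left 2 cerebellum, 3 cortex and 4 hippocampus samples. The labels name no animals, and each p-value therefore reflects only how these samples scatter, which may be technical. Cortex 3, hippocampus 3 and hippocampus 4 stood apart, with 3.88, 2.8 and 4.06% of counts on 60 known FMRP-bound mRNAs against 6.22 to 10.2% in the other 6 samples, and with 12.2 to 12.6% on predicted gene names against 3.11 to 7.5%. The granule cell markers Fat2 and Grm4 had means of 3436 and 1253 CPM in cerebellum and 113 and 94.5 CPM in forebrain (cortex and hippocampus). Camk2a, a forebrain excitatory marker, had 41.9 and 50.7 CPM in cerebellum and 336 to 2554 CPM in forebrain, whereas Slc17a7, of the same list, averaged 325 CPM in cerebellum and 338 CPM in forebrain and overlapped. Zbtb20 and Nr3c2, markers of hippocampal neurons, averaged 984 and 195 CPM in hippocampus and 278 and 90.8 CPM in cortex. Their cerebellum means were 925 and 15.2 CPM, so Zbtb20 did not part hippocampus from cerebellum. Single samples of Nr3c2 overlapped between cortex (32.6 to 168 CPM) and hippocampus (102.3 to 325 CPM). Summed markers of other cells ran from 1854 to 1935 CPM in cerebellum and 1513 to 6038 CPM in forebrain for astrocytes, and from 2944 to 3354 and 519.9 to 1432 CPM for Purkinje cells. Most of the Purkinje sum was Itpr1 (mean 2708 CPM in cerebellum), while Gad2 of that list averaged 58.8 CPM in cerebellum and 196.7 CPM in forebrain. For oligodendrocytes they ran from 943 to 1317 and 252 to 1004 CPM, and for microglia and endothelium from 147 to 162 and 65.1 to 256 CPM; the part of cell makeup in the results was not tested.

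The 8 genes were moderately covered. Over all 9 samples they held from 87 counts (Tnrc6a) to 228 counts (Tnrc6b), and by mean CPM they ranked from 236 (Tnrc6b) to 2016 (Tnrc6a) among all rows. Pum2 ranked 389, Dicer1 438, Cnot1 461, Tnrc6c 731, Ago2 810 and Ago1 1017. Intervals given beside CPM are exact Clopper-Pearson intervals at the 95% level. They cover counting error only, since amplified fragments are not independent molecules. The limit that a count of 0 allows, 3 counts, is 15.2 CPM in the deepest sample, cerebellum 2, and 252.1 CPM in the shallowest, cortex 3. In these tissue pieces, fewer cells of a type, less RNA per cell and less binding by FMRP cannot be told apart.

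Ago1, on chromosome 4 from 126435012 to 126468583 of the minus strand in GRCm38, encodes an Argonaute that binds microRNAs and represses through its partners. It had 168 and 238 CPM in cerebellum. In cortex it stood at 163, 161 and 84 CPM, and in hippocampus 1+2, 3, 4 and 5 at 169, 42.6, 137 and 279 CPM. The groups overlapped, the highest value being hippocampus 5 (interval 102.3 to 606 CPM) and the lowest hippocampus 3 (13.8 to 99.5 CPM).

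Ago2, on chromosome 15 from 73095844 to 73184935 of the minus strand, encodes the Argonaute that can itself cut a fully paired target. Its cerebellar values were 230 and 162 CPM. The cortex samples had 293, 233 and 336 CPM. Hippocampus 1+2, 3, 4 and 5 had 130, 42.6, 91.1 and 186 CPM. Every cortex sample thus lay above every hippocampus sample, and cerebellum lay between the region means. The library of conflicting labels, left out here, had 131.8 CPM on 4 counts, inside the hippocampus range. If it is cortex, as its title says, the separation does not hold. Without cortex 3, hippocampus 3 and hippocampus 4, the remaining cortex values of 233 and 293 CPM still lay above the remaining hippocampus values of 130 and 186 CPM. Counts were few: 26 in cortex and 28 in hippocampus in all. In the annotation, 219 exon bases of Ago2 are shared with Chrac1 on the opposite strand, a row with 5 counts over the 9 samples.

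**Figure D1:**
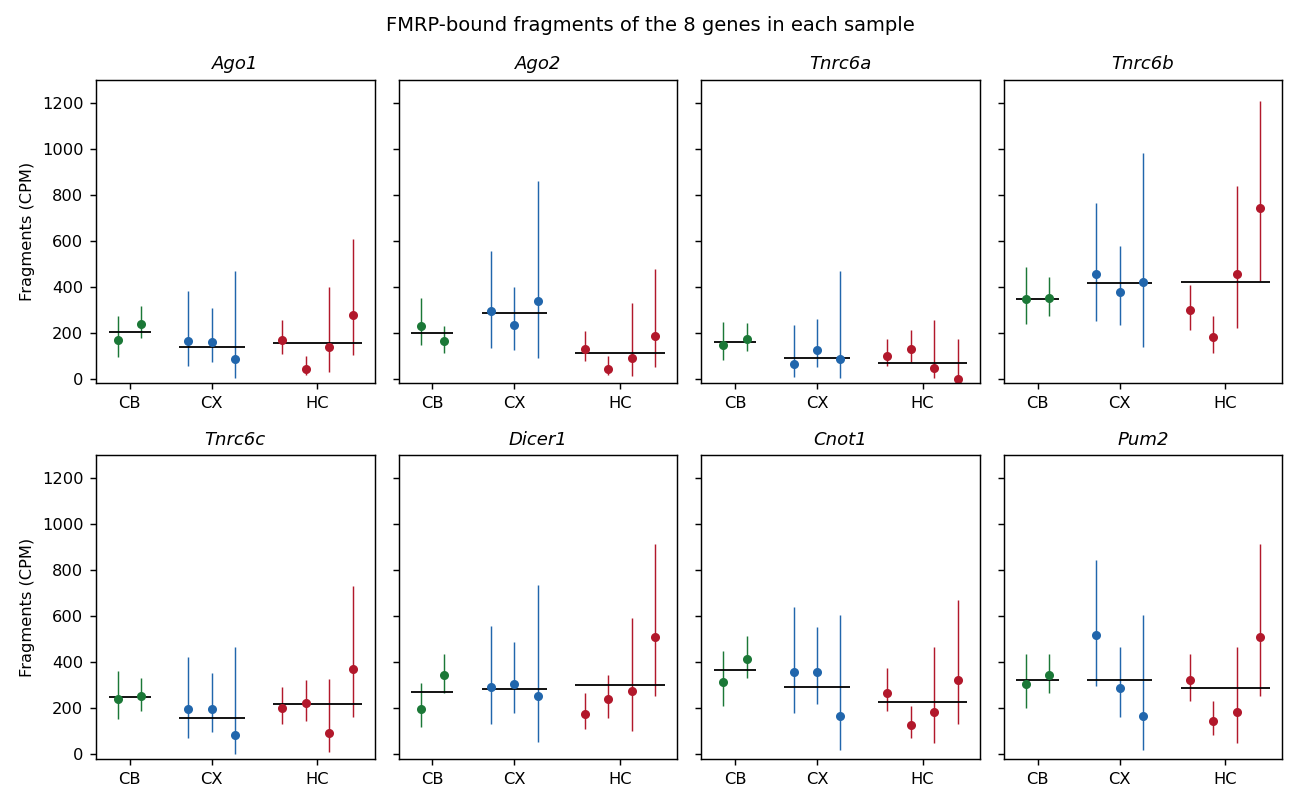
CPM of library totals (vertical axis) of each of the 8 genes in 2 cerebellum (CB, green), 3 cortex (CX, blue) and 4 hippocampus samples (HC, red; 1+2, 3, 4, 5 from left to right). Points are samples, vertical lines exact 95% counting intervals and horizontal lines region means; Ago2 is at 233 to 336 CPM in cortex and 42.6 to 186 CPM in hippocampus, while Dicer1 and Pum2 overlap across all regions.

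The TNRC6 genes encode the large GW-repeat proteins that bridge Argonaute and the deadenylases. Tnrc6b, on chromosome 15 from 80711313 to 80941085 of the plus strand, was the member with the most counts. It had 346 and 349.6 CPM in cerebellum, 456, 376 and 420.2 CPM in cortex, and 299 CPM in hippocampus 1+2. Hippocampus 3, 4 and 5 had 179, 456 and 743 CPM. The cerebellum values fell inside the range of hippocampus and below that of cortex, a difference that was not tested.

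Tnrc6c, on chromosome 11 from 117654289 to 117763439 of the plus strand, had 241 and 253 CPM in cerebellum. Its cortex values were 195, 197.2 and 84 CPM. Hippocampus 1+2, 3, 4 and 5 stood at 199.5, 222, 91.1 and 372 CPM. Both cerebellum samples were above all cortex samples and within the spread of hippocampus. How often tested rows part cerebellum from cortex in this way was not counted.

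Tnrc6a, on chromosome 7 from 123123885 to 123195296 of the plus strand, was the sparsest member and did not pass the filter on low counts. It had 147 and 172 CPM in cerebellum against 65.1, 125 and 84 CPM in cortex. Hippocampus 1+2, 3 and 4 had 99.8, 128 and 45.6 CPM, and hippocampus 5 had 0 counts, which allows up to 139 CPM. Cerebellum was above all 7 forebrain samples on library totals (mean 159 against 78.3 CPM, exact two-sided permutation p = 0.0556, the smallest that 36 splits give, and 0.111 adjusted over 2 tests). On totals scaled by TMM factors, which are 0.644 in hippocampus 3, the groups of Tnrc6a overlapped. Cortex and hippocampus, with means of 91.5 and 68.3 CPM, overlapped as well (exact permutation p = 0.571, adjusted p = 0.571).

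Dicer1, on chromosome 12 from 104687742 to 104751952 of the minus strand, encodes the ribonuclease that cuts microRNA precursors. In cerebellum it had 199 and 345 CPM. The cortex samples were close together at 293, 305 and 252 CPM. Hippocampus ran from 177 CPM in 1+2 through 239 CPM in 3 and 273 CPM in 4 to 511 CPM in 5. The 3 region means, 272, 283 and 299.9 CPM, differed less than the samples within cerebellum or hippocampus.

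Cnot1, on chromosome 8 from 95719451 to 95807464 of the minus strand, encodes the scaffold of the CCR4-NOT deadenylase complex. It had 314 and 415 CPM in cerebellum, and 358, 359 and 168 CPM in cortex. Hippocampus 1+2, 3, 4 and 5 had 269, 128, 182 and 325 CPM. Cerebellum 2 was the highest sample and hippocampus 3 the lowest, and cerebellum 1 lay inside the forebrain range. The antisense transcript 4930513N10Rik shares 132 exon bases with Cnot1 and had 9 counts.

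Pum2, on chromosome 12 from 8674134 to 8752581 of the plus strand, encodes a Pumilio repressor. Its cerebellum values were 304 and 345 CPM. In cortex it had 521, 287 and 168 CPM, and in hippocampus 322, 145, 182 and 511 CPM. Cortex and hippocampus covered nearly the same range, and cerebellum sat in the middle of it.

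Ordered by region mean, the genes took different courses. Ago1, Tnrc6a, Tnrc6c and Cnot1 had their highest mean in cerebellum, Ago2 and Pum2 in cortex, and Tnrc6b and Dicer1 in hippocampus. The ratio of the highest to the lowest region mean was 1.1 for Dicer1, 1.12 for Pum2 and 1.21 for Tnrc6b. It was 1.49 for Ago1, 1.56 for Tnrc6c, 1.61 for Cnot1, 2.33 for Tnrc6a and 2.55 for Ago2. With 2 to 4 samples a region, SDs were from 2.73 CPM (Tnrc6b in cerebellum) to 244 CPM (Tnrc6b in hippocampus). On library totals, single samples overlapped between cerebellum and forebrain except for Tnrc6a, and between cortex and hippocampus except for Ago2. Between cerebellum and cortex alone they did not overlap for Ago1, Tnrc6a and Tnrc6c, higher in cerebellum, and for Ago2 and Tnrc6b, lower there. For Ago1 the gap was narrow, from 163 CPM in cortex to 168 CPM in cerebellum. The share of all tested rows apart in that pair was not counted, and these differences were not tested. They are therefore a description and no result about the members.

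Cerebellum was compared with the mean of cortex and hippocampus by edgeR's quasi-likelihood test over 1720 rows. Of the 8 genes, 7 passed the filter and 0 were called in either direction, where edgeR called 7.67% of all tested rows (132 rows). An unadjusted p under 0.05 was reached by 0 of the 7 and by 18% of all rows. DESeq2 called 0 of the 7 and 87 of all 1720 rows. The count over all rows depended on single samples: edgeR called 2 of 2000 without cerebellum 1, 17 of 1994 without cerebellum 2, 15 of 2573 without cortex 1 and 81 of 1140 without hippocampus 1+2. Without hippocampus 5 it was 88 of 2385 rows, and on library totals with no further scaling 54 of 1720. All 7 log2 fold changes were above 0 (median 0.3, against 0.002 over all tested rows), and every interval included 0. How many of all tested rows lay above 0 was not counted. On CPM of library totals, Tnrc6b and Dicer1 had their lowest region mean in cerebellum. Under 21 alternatives the sign changed in 3 each for Tnrc6b, Dicer1 and Pum2, and in 2 for Tnrc6c. Ago1 had the largest fold change, 0.94 (SE 0.62, 95% interval -0.27 to 2.15, adjusted p = 0.484, edgeR). It was 2.28 without cerebellum 1 and 0.26 without cerebellum 2. With the title code as a block, the first of these rests on cerebellum 2 beside hippocampus 3, the only other sample of its code. Ago2 had 0.57 (interval -0.57 to 1.71), Cnot1 0.54 (-0.48 to 1.56), Tnrc6b 0.3 (-0.67 to 1.27), Tnrc6c 0.2 (-0.86 to 1.25), Pum2 0.16 (-0.85 to 1.16) and Dicer1 0.04 (-1 to 1.07). The upper bounds ran from 1.07 to 2.15. Of the 8 members 1, Tnrc6a, had CPM that did not overlap between cerebellum and forebrain, as did 13.6% of tested rows. On TMM-scaled totals the 1 member apart was Cnot1 instead, against 15.8% of tested rows.

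Values within the numeric codes of the sample titles, on TMM-scaled log2(CPM + 10), showed where these differences lay. Ago1 was 0.18 above forebrain in the code of cerebellum 1. It was 1.73 above hippocampus 3, the one forebrain sample that shares the other cerebellar code. Cnot1 had 0.19 and 1.05, Ago2 0.39 and 1.2, and Pum2 -0.25 and 0.62. Tnrc6c had 0.44 and -0.4. Thus for Ago1, Cnot1, Ago2 and Pum2 the larger value came from the comparison with hippocampus 3, the sample with the lowest share of known FMRP-bound mRNAs; the part of this share in the result was not tested. Without cortex 3, hippocampus 3 and hippocampus 4, the edgeR log2 fold changes were 0.23 for Ago1, 0.18 for Cnot1, 0.42 for Ago2 and -0.19 for Pum2. In the same fit Tnrc6c had 0.52, Tnrc6b 0.18 and Dicer1 0.08. The title code enters the fit as a block, and without hippocampus 3 cerebellum 2 is the only sample of its code. These fold changes therefore rest on cerebellum 1 alone for cerebellum.

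**Figure D2:**
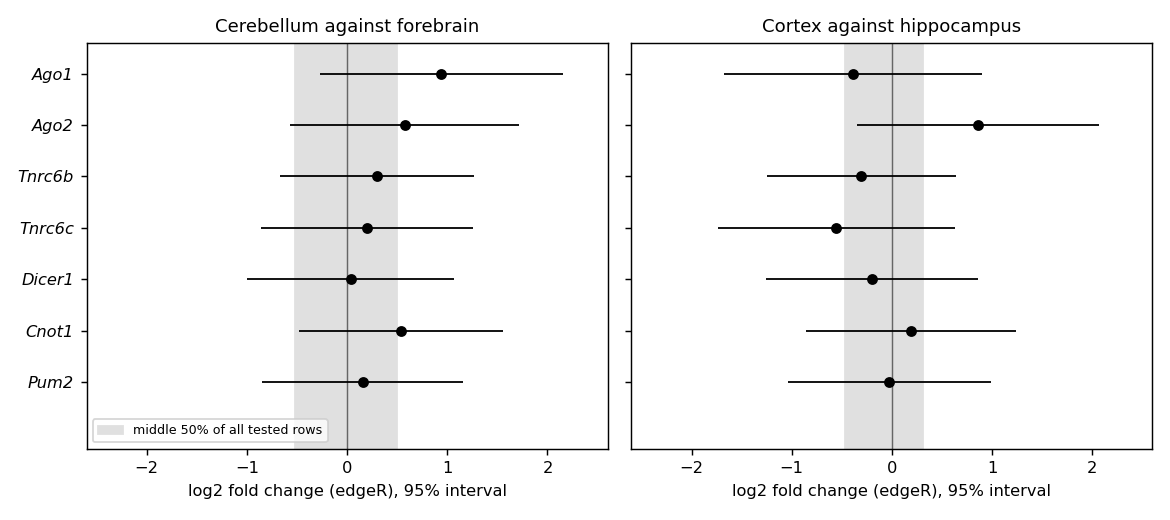
Log2 fold changes from edgeR (horizontal axis) with 95% intervals for the 7 members that passed the filter, for cerebellum minus forebrain (left) and cortex minus hippocampus (right). The grey band holds the middle 50% of all 1720 tested rows; all 14 intervals cross 0, with Ago1 at 0.94 on the left and Ago2 at 0.86 on the right.

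Cortex and hippocampus differed in 0 of the 7 tested members in edgeR (0 at an unadjusted p under 0.05, 0 with DESeq2), and 0% of all 1720 rows were called, with 68 (3.95%) at an unadjusted p under 0.05 and 1 called by DESeq2. Ago2 had the largest value, 0.86 on the log2 scale toward cortex (SE 0.62, 95% interval -0.35 to 2.06, adjusted p = 0.999, edgeR). Within title codes it was 0.81 (cortex 1) and 0.93 (cortex 2 with 3), and it ran from 0.69 to 1.16 over 21 other settings of the fit, with 0 called. With the library of conflicting labels left out, 1 of the 8 members, Ago2, did not overlap between cortex and hippocampus, against 3.9% of tested rows. Ago1, its paralog, had -0.39 (interval -1.68 to 0.9). Tnrc6c had -0.56 (-1.74 to 0.63), Tnrc6b -0.3 (-1.25 to 0.64), Dicer1 -0.2 (-1.26 to 0.86), Cnot1 0.19 (-0.86 to 1.24) and Pum2 -0.03 (-1.04 to 0.99). The median of the 7 was -0.2, against -0.04 over all tested rows.

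Within each family the share of fragments per paralog does not depend on how samples are scaled. Of all Argonaute fragments, Ago2 held 45, 44.8 and 66.7% in cortex 1, 2 and 3. In hippocampus 1+2, 3, 4 and 5 it held 30.4, 20.8, 18.2 and 28.6%, and in cerebellum 38.6 and 26.9%. All 3 cortex samples were above the other 6 samples, on family counts of 20, 29 and 6. In the library of conflicting labels, left out here, Ago2 held 21.1% of 19 Argonaute fragments, inside the hippocampus range. Summed over samples, where the deep ones weigh most, Ago2 had 47.3% of 55 Argonaute fragments in cortex (95% interval 33.7 to 61.2%), 26.7% of 105 in hippocampus (18.5 to 36.2%) and 30.7% of 176 in cerebellum (24 to 38.1%). Ago1 had 27.3, 34.3 and 35.8% in the same order. Intervals of shares, here and for TNRC6 below, cover counting error only and not the spread between samples. Ago3 and Ago4, which complete the family, had 71 and 43 counts in all, against 114 for Ago1 and 108 for Ago2.

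Among TNRC6 fragments, Tnrc6b held 48.7% of 468 over all samples (interval 44.1 to 53.3%), Tnrc6c 32.7% and Tnrc6a 18.6%. In cerebellum Tnrc6b had 45.7%, in cortex 58.8% and in hippocampus 48.6%, with intervals that overlapped. Single samples placed Tnrc6b above Tnrc6c in CPM in 8 of 9 samples, hippocampus 3 being the exception, and above Tnrc6a in 9 of 9. Tnrc6b also has the longest exons of the family, 23677 bases against 12843 for Tnrc6c and 12706 for Tnrc6a. On the scale of CPM per kb of exon, Tnrc6b averaged 17 ± 6.5, Tnrc6c 16 ± 6.71 and Tnrc6a 7.58 ± 4.23 (SD, n = 9). On that scale Tnrc6b was above Tnrc6c in 5 of 9 samples, and Tnrc6c was above Tnrc6a in 8 of 9. With summed counts divided by exon length, Tnrc6c had the largest share of the family in cerebellum (41.3% against 31.3% for Tnrc6b) and hippocampus (44.9% against 33.8%), and Tnrc6b in cortex (43.6% against 36.1%).

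**Figure D3:**
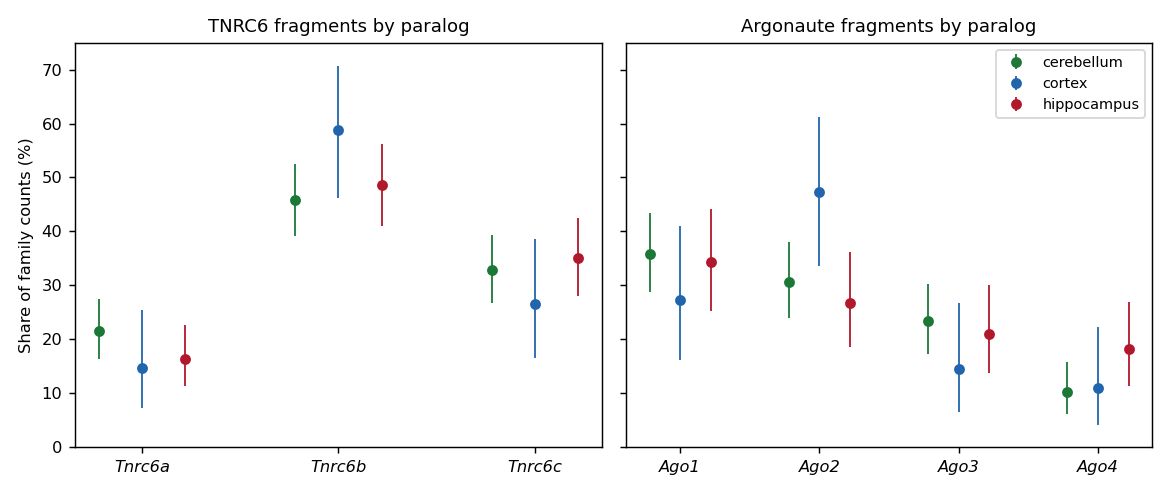
Share of TNRC6 (left) and Argonaute (right) fragments held by each paralog (vertical axis, percent of the family's counts summed over the samples of a region), in cerebellum, cortex and hippocampus. Lines are exact 95% counting intervals; Ago2 is at 47.3% in cortex against 26.7% in hippocampus, and Tnrc6b has the largest share of TNRC6 counts, not corrected for length, in all 3 regions with 45.7 to 58.8%.

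Per kb of exon, the 8 genes were mostly below the typical tested row. Pum2 was the exception, with 42.6 ± 18.9 CPM per kb (SD, n = 9), a level exceeded by 19.7% of the 1669 tested rows with a length. The next were Ago1 with 19.7 ± 8.75 and Dicer1 with 17.2 ± 5.87 CPM per kb. Cnot1 had 16.3 ± 5.79 and Ago2 13.5 ± 6.73 CPM per kb. The median over tested rows was 23.5 CPM per kb, above which 1 of 8 members lay. Without the length, 6 of 8 lay above the median of 179.6 CPM. Known FMRP-bound mRNAs had a median of 51.7 CPM per kb (middle 50% from 29.6 to 101 CPM per kb), and 0 of 8 members reached it, Pum2 alone lying above the lower quartile. In each of the 9 samples Pum2 had more CPM per kb than Cnot1 and Dicer1. Lengths are unions of annotated exons, so unused exons lower a value, and without input RNA these levels are no measure of binding.

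The member transcripts were long. Their coding sequences had a median of 5559 bases against 2952 bases in 1640 tested rows, and 6 of 8 were above that median. Annotated 3' untranslated regions were longer than the median of 1770 bases (middle 50% from 780 to 3426) in 7 of 8 members, reaching 11609 bases in Tnrc6b and 11064 bases in Ago2, with Cnot1 shortest at 956 bases. Short motifs (4 letters) described in earlier work for FMRP were counted on the sense strand of the coding sequence, overlaps included. TGGA occurred 8.24 times per kb in the median member and 8.14 times in the median tested row, and ACTG 4.99 and 4.8 times. AGGA occurred 6.26 and 7.77 times per kb, with 2 of 8 members above the median of the tested rows, Tnrc6b with 9.39 and Dicer1 with 9.09. ACTT was at 3.43 against 3.26. These motif counts describe the letters only, because the table holds no position of a fragment.

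Summed over the 8 genes, cerebellum had 1949 and 2280 CPM. Cortex had 2344, 2044 and 1597 CPM, and hippocampus 1+2, 3, 4 and 5 had 1665, 1125, 1458 and 2926 CPM. The 3 lowest sums belonged to cortex 3, hippocampus 3 and hippocampus 4, which are also the 3 samples with the lowest share of known FMRP-bound mRNAs and the highest share of predicted gene names. Scaled by TMM factors, the sums lay between 1639 and 2320 CPM in all 9 samples, and those 3 samples had 1640, 1747 and 1885 CPM. On this scale the region means were 2135 ± 263 (SD, n = 2), 1713 ± 126 (n = 3) and 1874 ± 256 CPM (n = 4) in cerebellum, cortex and hippocampus, and single samples of cerebellum and hippocampus overlapped. Both cerebellum samples, at 1949 and 2320 CPM, lay above the cortex samples, the highest of which was at 1858 CPM; this difference was not tested.

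**Figure D4:**
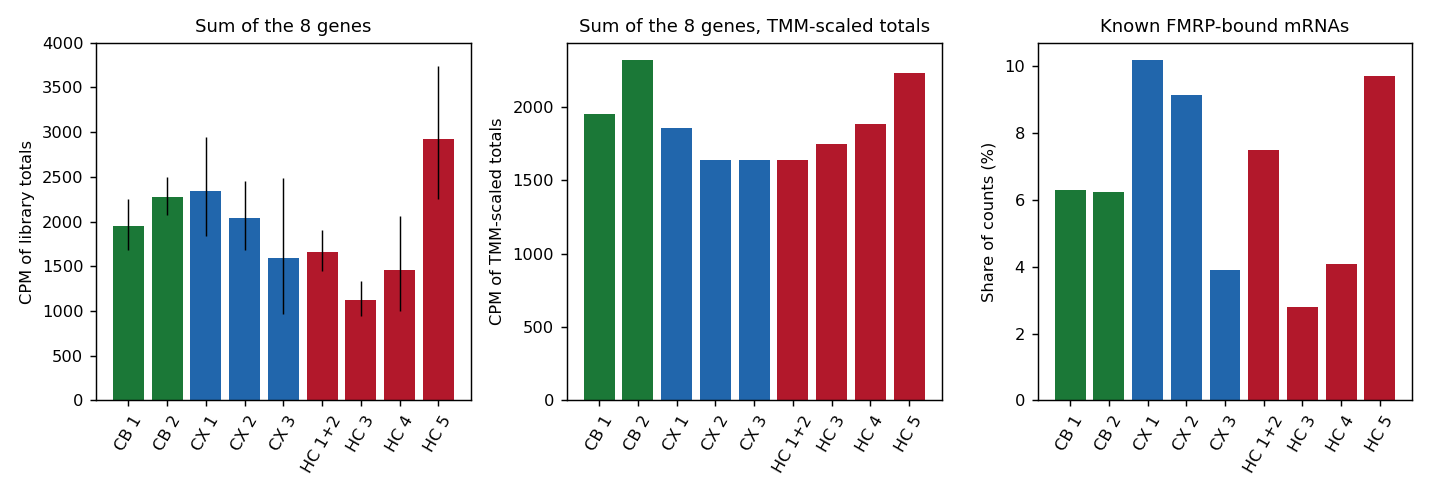
Sum of the 8 genes in each sample as CPM of library totals with exact 95% counting intervals (left) and of TMM-scaled totals (middle), and the share of counts on 60 known FMRP-bound mRNAs in percent (right), for cerebellum (CB), cortex (CX) and hippocampus (HC). On library totals the sums run from 1125 CPM in HC 3 to 2926 CPM in HC 5, and on scaled totals from 1639 to 2320 CPM.

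Across the 9 samples, the 28 pairs of members had Pearson correlations of log2(CPM + 10) with a median of 0.45, of which 20 were above 0. They share library depth and background, so these values are a description. Ago1 went with Cnot1 (r = 0.87) and Cnot1 with Pum2 (r = 0.86), while Tnrc6a ran opposite to Tnrc6b (r = -0.77) and to Dicer1 (r = -0.68). Among the tested genes whose pattern was most like the summed members were Zfp106 (r = 0.95), Rev3l (r = 0.95) and Adrbk1 (r = 0.93). Region means of Zfp106 were 536 (cerebellum), 529 (cortex) and 510.5 CPM (hippocampus).

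The wider pathway was covered by 88 further genes in 4 lists, of which 13 passed the filter. In edgeR, 0 of 13 were called between cerebellum and forebrain, and 0 of 13 between cortex and hippocampus, beside 7.67% and 0% of all tested rows. An unadjusted p under 0.05 was reached by 0 of 13 in both comparisons, beside 18% and 3.95% of all tested rows, and DESeq2 called 0. The median log2 fold changes were 0.35 and -0.17, with 8 and 4 of 13 above 0. The first was -0.095 on the same 13 genes when the title code was left out of the fit. Over all settings of the fit it ran from -0.106 (library of conflicting labels as hippocampus, no title code) to 0.593 (without cerebellum 1), on differing numbers of tested genes. The fit without cerebellum 1 rests on cerebellum 2 beside hippocampus 3. Among genes of small RNA loading and biogenesis, 5 of 16 were tested, led by the chaperone gene Hsp90ab1 (346 ± 134, 364 ± 263 and 284 ± 128 CPM in cerebellum, cortex and hippocampus). Drosha, the nuclear ribonuclease that makes microRNA precursors, had 196 ± 9.96, 289.7 ± 178 and 283 ± 220.3 CPM (n = 2, 3 and 4). Ago3 was at 1.04 toward cerebellum on the log2 scale (SE 0.82; edgeR adjusted p = 0.619).

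Of 17 other deadenylation genes, 0 passed the filter, which left Cnot1 as the one tested gene among those listed. The fullest of them, Cnot4 and Pan3, had 92 and 94 counts, with means over 9 samples of 126 ± 52.1 and 107.5 ± 67.8 CPM (SD). Among 21 decapping and decay genes 2 were tested. Smg1, a kinase of nonsense-mediated decay, had 659 ± 42.7, 433 ± 81.6 and 433 ± 212 CPM (n = 2, 3 and 4) and lay 0.78 toward cerebellum on the log2 scale (SE 0.47; edgeR adjusted p = 0.412). Among 34 RNA-binding repressor and poly(A)-binding genes 6 were tested. Rc3h2, of the Roquin family, had 369 ± 26.9, 426 ± 297 and 459.6 ± 335 CPM. Celf2, a regulator of splicing and translation, had 133 ± 40.6, 422 ± 280 and 334 ± 203 CPM, and its log2 difference was -0.63 (SE 0.58; edgeR adjusted p = 0.696).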

How the data were processed

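The authors deposited whole-number fragment counts per gene symbol for 11 libraries. Per the submitters' processing notes, mm10, Bowtie 0.12.7 and Picard were used; for the counting program, annotation, strand and duplicates, nothing is given in the sources used here. 0 sample columns were left unused. CPM use library totals. Regions were tested with edgeR 4.0.16 (R 4.3.3) by quasi-likelihood (TMM factors, filterByExpr by region, Benjamini-Hochberg adjusted p under 0.05 over all 1720 rows), with the numeric title code, whose meaning the labels do not give, as a block, 9 samples and 4 residual degrees of freedom; deviations from region means correlated with a median r of 0.13 over 8 pairs of the same code and -0.05 over 18 pairs of different codes. The SE is the absolute log2 fold change over the square root of F, and is approximate. Intervals use it with the pooled degrees of freedom of the fit, 6880. The spread is thus shared over the tested rows. The edgeR p-values and these intervals carry almost nothing of a single gene's own scatter, and are narrower than 4 degrees of freedom would give. Members that fail the filter got exact permutation tests of CPM (scipy 1.17.1). Exon lengths and positions come from GENCODE M21 on GRCm38. Alternatives were run with DESeq2 1.42.0, other factors, filters and samples. The fit was also run on simulated counts with the same dispersion for all rows and no effect of title code. That setting is simpler than these data, and its outcome is not reported here.

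The text names all 8 members, the 2 genes of highest mean CPM in each pathway list and any called there (0), the 5 genes most like the summed members and the 2 fullest markers of the granule cell, forebrain excitatory and hippocampal lists; Ago3, Ago4 and the overlapping genes were added after their values were seen. Some genes that this rule names are not reported here. Members, lists and tests were chosen with earlier results of these data known.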

Additional observations from a re-analysis of the deposited data

Results flagged for a closer look

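The library whose title names cortex and whose tissue label names hippocampus held 30344 counts, 45 of them on the 8 genes, and was used in no comparison of the regions. In it 7 of the 8 genes were above the 3 counts that a count of 0 allows. Tnrc6b had 362.5 CPM, Pum2 263.6 CPM, Ago1 197.7 CPM, Dicer1 197.7 CPM, Tnrc6c 164.8 CPM, Ago2 131.8 CPM and Cnot1 131.8 CPM. Tnrc6a had 1 count. Ago2 held 21.1% of 19 Argonaute fragments there. Both its CPM and its share lay inside the hippocampus range and below every cortex sample. No hippocampus sample passed a limit of 0.829 in Dixon's ratio, in any of the 8 genes or in their sum (0 of 9 groups of 4 samples). With 4 values only an extreme sample passes it, so this is no sign that the samples agree. Cerebellum and cortex had too few samples for this check.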

How the results depend on the processing

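Counts of 0 called members and 0 called pathway genes held in both comparisons under all 21 alternatives run. Between cortex and hippocampus the most rows called in all were 3 of 1989, without the 3 samples of lowest known share. Between cerebellum and forebrain 1 of 30818 was called without the filter and 15 of 2573 without cortex 1. With hippocampus 1 and 2 separate it was 185 of 1530. Where so few rows are called, a count of 0 says little about the members. Of 294 member values under alternatives, 271 kept their direction and 23 changed sign, with 0 past the threshold (lowest adjusted p 0.335). Leaving out the title code (no replicate block) gave -0.091 for Tnrc6b between cerebellum and forebrain. The library of conflicting labels is the only one of its title code, so with the block it bears on no region difference, and both assignments give the same values. That fit, over 1215 rows that pass the filter then, gave -0.018 for Dicer1. Added without the block, a choice made after seeing the data, it gave -0.16 (as cortex) and -0.131 (as hippocampus) for Tnrc6b, and -0.052 for Cnot1 between cortex and hippocampus (as cortex). Without the 3 samples of lowest known share, Pum2 had -0.19 between cerebellum and forebrain, a value that rests on cerebellum 1. Between cortex and hippocampus, the libraries with s titles alone gave 0.095 for Ago1, 0.434 for Tnrc6b, 0.467 for Dicer1 and 0.638 for Pum2; library totals alone gave 0.069 for Dicer1 and 0.208 for Pum2, and no filter on low counts 0.077 for Pum2. Leaving out 1 sample at a time moved cerebellum against forebrain from -0.016 to 0.518 for Tnrc6c, -0.194 to 0.413 for Dicer1 and -0.195 to 0.88 for Pum2, 0.259 to 2.284 for Ago1 and 0.226 to 1.203 for Cnot1, and cortex against hippocampus from -0.506 to 0.074 for Dicer1 and -0.503 to 0.406 for Pum2. Where 1 cerebellum sample is left, the other regions supply the spread. Without cerebellum 1, cerebellum 2 shares its title code with hippocampus 3 alone. The upper ends for Ago1, Cnot1 and Pum2 between cerebellum and forebrain come from that fit and rest on these 2 samples. Without hippocampus 3, cerebellum 2 is alone in its title code, and cerebellum 1 alone bears on the comparison with forebrain. Over the alternatives the mean summed CPM of the members ran from 1949 to 2280 in cerebellum and 1713 to 2194 in cortex. In hippocampus it ran from 1416 to 2017 CPM. These moves were under 1 SD, but leaving out 1 sample cannot move a mean that far, so this is no sign of stability. The cause of these changes was not tested. Counts of single members were low: 5 of 9 samples had under 10 counts of Ago2, and 6 of 9 of Ago1.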
